A study of Mus musculus with 15 samples.

Results

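The integrated stress response and the unfolded protein response were followed in 21EM15 cells through 38 listed genes, matched by symbol to the 2 deposited expression tables. All 38 members were present in both tables, among 11677 genes in the table of cultures, 11299 in the table of organoid regions and 11935 genes in either. Of these, 21 form the ATF4 group, which holds *Atf4* and genes known as its targets or partners, and 17 form the ER chaperone group, which holds *Xbp1* and genes of protein folding and quality control in the endoplasmic reticulum (ER). The rule that lists them uses no measured value, although earlier results of these data were known when they were listed. 21EM15 is an established, immortalized mouse lens epithelial cell line, and all 15 samples come from this 1 line and are labelled WT, with no agent named. The study used it to ask how growth in 3 dimensions alters gene expression, and how gene expression differs between regions of the resulting organoids. Libraries made from the 3′ ends of RNA were sequenced for 4 samples of cells grown flat in dishes (2D), 4 samples of pooled spheroids grown in wells that prevent attachment (3D), and laser-captured regions of sectioned spheroids (4 internal and 3 external samples). The authors removed a further external sample because it differed from the other external samples in a principal component analysis. It was not analysed here, so the spread between external samples does not include it. The region between the internal and external regions was not profiled. Neither the labels nor the methods say whether replicates were grown at separate times or whether internal and external samples with one number came from the same pool of organoids, so p-values measure the spread between these samples only.

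In the integrated stress response, kinases that sense amino acid shortage, ER stress, double-stranded RNA or heme shortage phosphorylate the translation factor eIF2. General translation then falls while the transcription factor ATF4 is made, and ATF4 raises genes of amino acid synthesis, amino acid import and tRNA charging together with regulators that end the response. The unfolded protein response acts alongside it from the ER membrane through the sensors IRE1, ATF6 and PERK, and the factors XBP1 and ATF6 raise chaperones, disulfide isomerases and genes of ER-associated degradation. Lens fiber cells make crystallins in large amounts, and whether the lens depends on either response was not tested. The reads give RNA levels, so eIF2 phosphorylation, ATF4 protein and the splicing of *Xbp1* were not measured.

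Short DNA elements of both branches were looked up in the members' promoters, because they show which members carry the letters that ATF4 or ATF6 is known to bind. The promoter windows (RefSeq, build GRCm38.p6) run from 250 bases before to 50 bases after a gene's start. Here the start is the RefSeq start, which can differ from the GENCODE gene spans given below, as for *Atf3*, *Nupr1* and *Asns*. A window was given for 35 of the 38 members, 20 in the ATF4 group and 15 in the ER chaperone group, and for 3 members (*Hyou1*, *Manf* and *Slc7a5*) none was used here. The core of the C/EBP-ATF response element, TGATGNAA on either strand, was found in 6 members of the ATF4 group (*Asns*, *Atf3*, *Chac1*, *Nupr1*, *Slc7a11* and *Trib3*) and 1 member of the ER chaperone group (*Herpud1*). It lies in 3.97% of all 32851 windows and in 4.51% of all 27025 genes with a window. The match in *Trib3* lies after the start of the gene and is not printed. The other matches of the ATF4 group are shown 5′ to 3′ on the strand of the gene, with 20 bases on either side and the match in capitals. TTGCATCA is the element read on the opposite strand, and the line for *Slc7a11* carries a second match in lower case.

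Asns (chr6:7693205-7693252, minus strand): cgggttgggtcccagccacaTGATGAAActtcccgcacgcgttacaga
Atf3 (chr1:191183416-191183463, minus strand): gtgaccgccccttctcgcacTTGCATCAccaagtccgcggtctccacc
Chac1 (chr2:119351029-119351076, plus strand): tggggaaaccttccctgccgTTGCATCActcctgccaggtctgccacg
Nupr1 (chr7:126625553-126625600, minus strand): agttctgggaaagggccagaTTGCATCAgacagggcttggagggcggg
Slc7a11 (chr3:50443652-50443699, minus strand): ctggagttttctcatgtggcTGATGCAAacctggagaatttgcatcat

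The ER stress response element consists of CCAAT, 9 bases of any kind and CCACG. It was found on either strand in 6 of the 15 members of the ER chaperone group with a window (*Calr*, *Creld2*, *Dnajc3*, *Hsp90b1*, *Hspa5* and *Pdia6*) and in 0 of the 20 of the ATF4 group. It lies in 0.119% of all windows and in 0.137% of all genes with a window. *Hsp90b1*, which encodes the ER chaperone GRP94, holds 2 matches, of which the one nearer to the start of the gene is shown. A related element, TGACGTGG, was in no member's window, in 0.676% of all windows and in 0.714% of all genes with a window. No match of one element overlapped a match of another. These lines show the matches in capitals, again 5′ to 3′ on the strand of the gene.

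Hspa5 (chr2:34772005-34772063, plus strand): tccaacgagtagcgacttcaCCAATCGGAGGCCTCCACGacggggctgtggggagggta
Pdia6 (chr12:17266471-17266529, plus strand): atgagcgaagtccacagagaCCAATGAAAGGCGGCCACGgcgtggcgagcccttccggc
Dnajc3 (chr14:118937807-118937865, plus strand): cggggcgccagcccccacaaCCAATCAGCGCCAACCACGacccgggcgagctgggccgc
Calr (chr8:84847055-84847113, minus strand): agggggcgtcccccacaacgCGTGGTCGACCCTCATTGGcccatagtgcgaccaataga
Creld2 (chr15:88819500-88819558, plus strand): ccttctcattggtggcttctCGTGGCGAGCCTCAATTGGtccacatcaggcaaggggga
Hsp90b1 (chr10:86705513-86705571, minus strand): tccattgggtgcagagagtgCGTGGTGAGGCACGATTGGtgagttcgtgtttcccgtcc

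These matches describe the letters in a window and not binding, which was not measured. As set out below for each gene, members with the same element did not all move the same way. Among those with TGATGNAA, *Nupr1* rose and *Asns*, *Chac1*, *Slc7a11*, *Trib3* and *Herpud1* fell in the internal region, while *Atf3* did not pass the test there.

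Between 7305053 and 9362587 reads were counted per culture sample and between 4044230 and 11702504 per region sample. A count of 3 reads, taken as the smallest signal that this depth can show, corresponds to between 0.248 and 0.802 CPM (counts scaled to a common library total), and the least covered member was *Ppp1r15a* with 13 reads in 2D replicate 2. Of 10 markers listed for lens epithelium, of which *Prox1* and *Cryab* are also expressed in fiber cells, 6 were in both tables (*Pax6*, *Six3*, *Cryab*, *Prox1*, *Mab21l1* and *Gja1*), while *Foxe3*, *Cdh1*, *Pitx3* and *Sox2* were not in either. Of 10 further markers listed for lens fibers, 0 were in the culture table, and *Bfsp1* and *Hsf4* were in the region table. None of 4 endothelial markers and 1 of 5 immune markers (*Cd68*, at 32 reads or fewer) was in the tables. A gene is said to have passed the test at an adjusted p under 0.05 (limma, Benjamini-Hochberg over all genes of the table), and to have passed the stricter rule at an adjusted p under 0.01 with an absolute log2 fold change over 1. In these bulk samples, fewer cells that express a gene and less of its RNA per cell cannot be told apart.

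**Figure D1:**
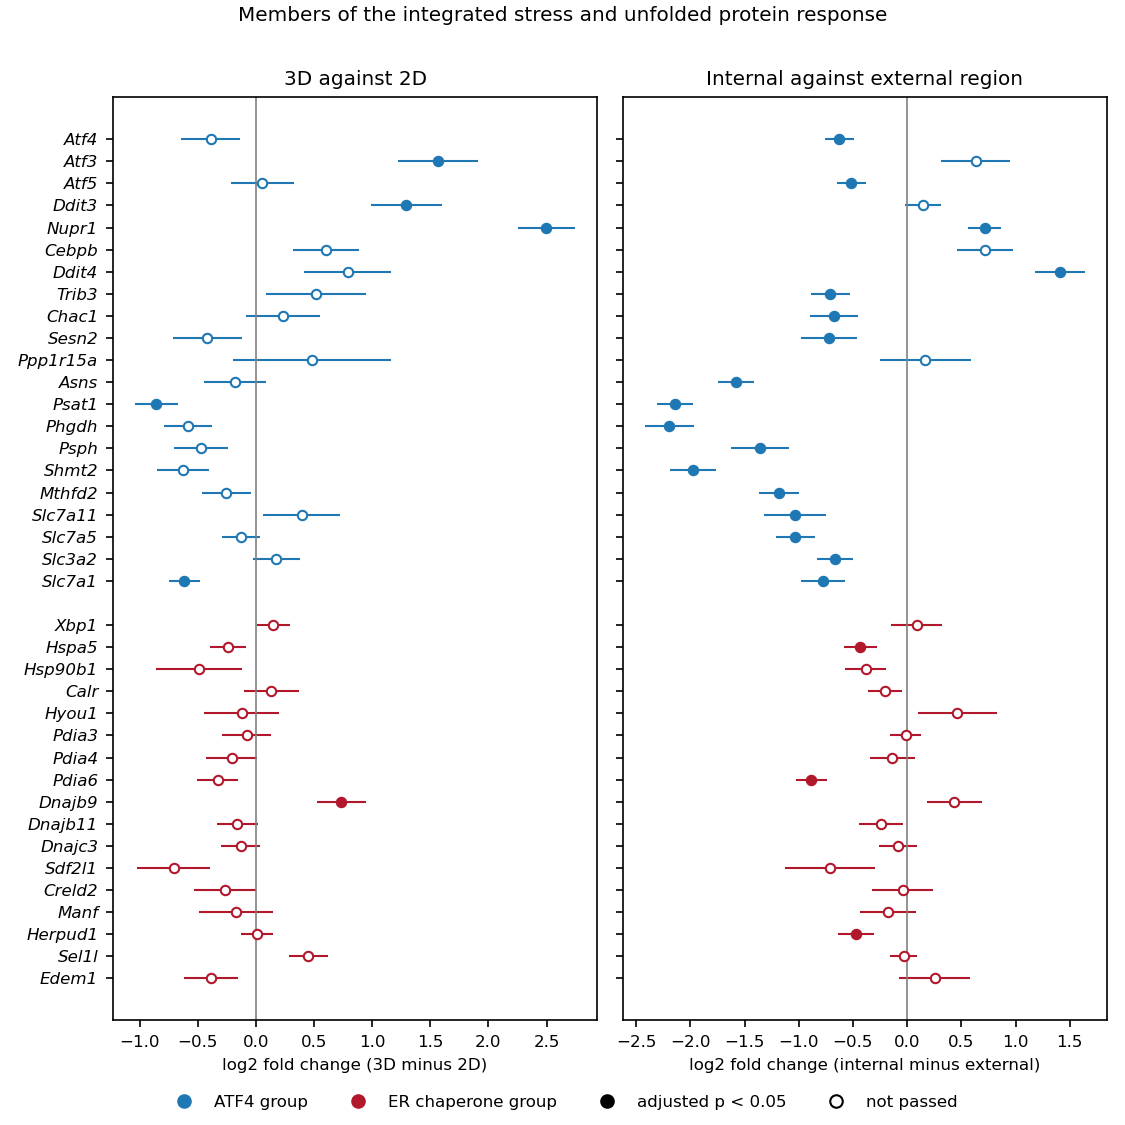
Log2 fold change of each member in 3D against 2D (left) and in the internal against the external region (right). Points are the fitted values, lines are the SE, filled points passed the test, blue is the ATF4 group and red the ER chaperone group, and the cluster of filled blue points on the left of zero in the right panel holds 15 of the 21 ATF4 members.

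The comparison of 3D with 2D cultures asks what differs between cells grown as spheroids and cells grown flat. By the paper's methods, spheroids were kept in culture longer than dishes usually were, and dishes were taken before full confluence. Growth as a spheroid, time in culture and cell density therefore cannot be told apart here. In the ATF4 group, 3 members were higher in 3D and 2 were lower, where 9.74% of all genes passed in the higher direction, 9.25% in the lower and 19.0% in either. All 3 members that rose are transcription regulators of stress (*Nupr1*, *Atf3* and *Ddit3*), and both that fell serve amino acid supply (*Psat1* and *Slc7a1*). *Atf4* itself did not pass the test. The median log2 fold change was 0.06 over the 21 members and -0.03 over all genes, and its sign rested on single samples, being -0.19 without 2D replicate 4, -0.026 without 2D replicate 1 and 0.13 without 3D replicate 2. By the stricter rule 1 member was higher and 0 were lower, against 2.92% and 1.51% of all genes.

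*Nupr1*, a small chromatin-associated protein induced by many kinds of stress (ENSMUSG00000030717, chr7:126623249-126630861, minus strand), showed the largest change of any member. It measured 7.25, 7.58, 6.57 and 6.56 log2 CPM in 2D replicates 1 to 4 and 9.0, 9.58, 9.64 and 9.74 in 3D replicates 1 to 4. Every 3D sample was above every 2D sample, and the mean rose from 6.99 ± 0.51 to 9.49 ± 0.33 log2 CPM (SD, n = 4 and 4). The difference was 5.65-fold, or 2.5 ± 0.25 (SE) on the log2 scale (adjusted p = 0.000513).

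*Atf3*, a stress-induced factor that mostly represses its targets (chr1:191170296-191218039, minus strand), was at 2.45, 3.21, 2.16 and 1.40 log2 CPM in the 2D replicates and at 4.06, 3.94, 3.78 and 3.70 in the 3D replicates. The 3D values lay close together and above all 2D values, which spread widely, from 23 reads in 2D replicate 4 to 66 reads in 2D replicate 2. Its log2 fold change was 1.57 ± 0.35 (SE, adjusted p = 0.0127). *Ddit3*, which encodes CHOP, the factor tied to cell death under lasting ER stress (chr10:127290774-127296288, plus strand), was at 7.01, 7.29, 7.01 and 5.82 log2 CPM in 2D and at 7.58, 7.96, 8.29 and 8.48 in 3D. The groups did not overlap and the log2 fold change was 1.29 ± 0.30 (SE, adjusted p = 0.0159). Without 3D replicate 3 or 3D replicate 4, the adjusted p of *Ddit3* was 0.0532 or 0.0543.

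The other factors and regulators of the ATF4 group did not pass the test in the cultures. *Atf4* was at 10.38, 10.73, 10.29 and 9.43 log2 CPM in 2D and at 9.43, 9.92, 9.87 and 10.05 in 3D, so that the groups overlapped (log2 fold change -0.39 ± 0.25, SE, adjusted p = 0.308). *Atf5*, a related bZIP factor, differed by 0.06 and *Cebpb*, a bZIP partner of ATF4, by 0.60 on the log2 scale. Among the regulators, *Ddit4*, which encodes the mTORC1 inhibitor REDD1, differed by 0.79 ± 0.37 (adjusted p = 0.163), and without 2D replicate 3 by 1.15 with an adjusted p of 0.0283. *Trib3*, a pseudokinase that restrains ATF4 and CHOP, differed by 0.52, *Chac1*, an enzyme that breaks down glutathione, by 0.23, and *Sesn2*, a leucine-binding inhibitor of mTORC1 signaling, by -0.42. *Ppp1r15a*, which encodes the GADD34 subunit that brings a phosphatase to eIF2, was at 4.76 log2 CPM in 2D replicate 1 and between 1.01 and 2.44 in the other 2D replicates, while the 3D samples lay between 2.34 and 3.14. That 1 sample set its group's spread (SD of 1.68), and without it the log2 fold change was 1.27 with an adjusted p of 0.050 in place of 0.49 with 0.654.

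**Figure D2:**
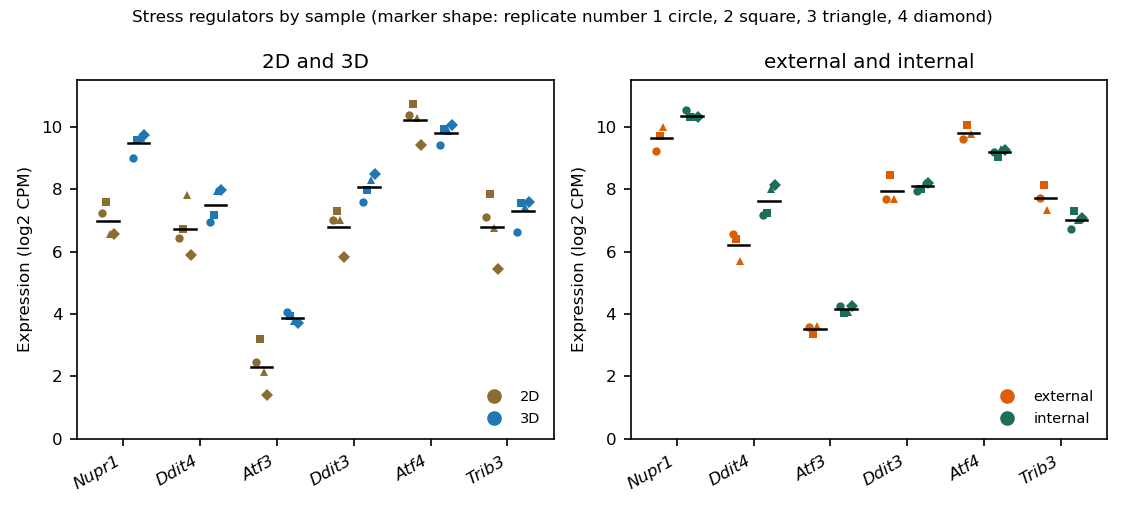
Expression of 6 stress regulators in each sample, in log2 CPM, for cultures (left) and organoid regions (right). Each point is 1 sample, its shape gives the replicate number, and bars are group means. *Nupr1*, *Atf3* and *Ddit3* lie higher in every 3D than in every 2D sample, and *Ddit4*, *Nupr1* and *Atf3* lie higher in every internal than in every external sample.

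All 6 enzymes of the ATF4 group had a negative log2 fold change in 3D, from -0.85 to -0.18, and 1 of them passed the test. *Psat1*, which catalyses the transamination step of serine synthesis (ENSMUSG00000024640, chr19:15904678-15947337, minus strand), was at 9.08, 9.31, 9.14 and 8.62 log2 CPM in 2D and at 7.94, 8.59, 7.98 and 8.23 in 3D. The highest 3D value was just under the lowest 2D value, and the log2 fold change was -0.85 ± 0.19 (SE, adjusted p = 0.0119). *Phgdh*, the enzyme that commits carbon to serine synthesis, differed by -0.58 ± 0.20 (adjusted p = 0.0712), and without 2D replicate 3 by -0.74 with an adjusted p of 0.0331. *Shmt2*, which moves a carbon unit from serine to folate in mitochondria, differed by -0.63 ± 0.22 (adjusted p = 0.0726). *Psph*, the last step of serine synthesis, *Mthfd2*, a mitochondrial folate enzyme, and *Asns*, asparagine synthetase, gave -0.47, -0.25 and -0.18, and none of these passed the test. Of the 4 amino acid transporters, 1 fell. *Slc7a1*, the carrier for arginine and lysine (chr5:148327410-148399904, minus strand), was at 7.17, 7.43, 7.35 and 7.18 log2 CPM in 2D and at 6.61, 6.96, 6.56 and 6.54 in 3D. The groups did not overlap and the log2 fold change was -0.61 ± 0.13 (SE, adjusted p = 0.0121). The cystine importer *Slc7a11*, the large neutral amino acid carrier *Slc7a5* and their shared partner chain *Slc3a2* differed by 0.39, -0.13 and 0.18.

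In the ER chaperone group, 1 of 17 members was higher in 3D and 0 were lower, beside 9.74% and 9.25% of all genes, the median log2 fold change was -0.16, and none passed the stricter rule. The median was 0.00047 without 2D replicate 4, -0.039 without 3D replicate 2 and -0.28 without 2D replicate 2. The member that passed was *Dnajb9*, which encodes the BiP co-chaperone ERdj4 (chr12:44205559-44210326, minus strand). It was at 4.29, 3.96, 3.88 and 4.78 log2 CPM in 2D and at 5.06, 5.06, 4.78 and 4.94 in 3D. The highest 2D sample and the lowest 3D sample nearly touched, and the log2 fold change was 0.73 ± 0.21 (SE, adjusted p = 0.0362). When single samples were left out, the call held only without 2D replicate 4 (adjusted p = 0.0134) and was lost in the 7 other cases, with adjusted p between 0.0503 and 0.0932. *Sel1l*, the scaffold of the ER ubiquitin ligase HRD1, was at 8.36, 8.59, 8.07 and 7.75 log2 CPM in 2D and between 8.59 and 8.67 in 3D. It gave a difference of 0.45 ± 0.17 that did not pass (adjusted p = 0.0881), and without 2D replicate 2 the adjusted p was 0.0189.

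The major chaperones were abundant in both culture types and did not pass the test. *Hspa5*, which encodes BiP, the Hsp70 chaperone that holds the ER stress sensors inactive, was at 10.48, 10.80, 10.995 and 10.95 log2 CPM in 2D and at 10.54, 10.36, 10.63 and 10.75 in 3D (log2 fold change -0.24 ± 0.15, adjusted p = 0.305). *Hsp90b1* and the lectin chaperone *Calr* differed by -0.49 ± 0.37 and 0.13 ± 0.24, and *Xbp1*, the factor of the IRE1 branch, by 0.15 ± 0.14. The remaining members, the Hsp70-like *Hyou1*, the disulfide isomerases *Pdia3*, *Pdia4* and *Pdia6*, the J proteins *Dnajb11* and *Dnajc3*, the cofactors *Sdf2l1*, *Creld2* and *Manf* and the degradation genes *Herpud1* and *Edem1*, lay between -0.71 (*Sdf2l1*) and 0.01 (*Herpud1*). Over both groups, 5 members had samples that did not overlap with 3D higher (*Nupr1*, *Atf3*, *Ddit3*, *Dnajb9* and *Sel1l*) and 2 with 3D lower (*Psat1* and *Slc7a1*), where 12.0% of all genes did so with 3D higher and 12.0% with 3D lower.

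Samples of 1 culture type differed from one another in many members at once. In the ATF4 group, 2D replicate 4 was the lowest of the 4 2D samples in 18 of 21 members, against 26.1% of all genes, and 2D replicate 2 was the highest in 17 of 21, against 30.5% of all genes. The median deviation of the members from their group mean was -0.73 in 2D replicate 4 and 0.47 in 2D replicate 2 on the log2 scale, and that of all genes was 0.01 and 0.02. Among the 3D samples, replicate 1 was the lowest in 14 of 21 members, with a median deviation of -0.23. The ER chaperone group had another order, with 2D replicate 4 the highest in 11 of 17 members and 3D replicate 2 the lowest in 14 of 17. Without 2D replicate 4, 5 ATF4 members were lower in 3D in place of 2. In that fit 675 of all 11677 genes were lower in 3D, in place of 1080. The added members were *Atf4* (-0.65, adjusted p = 0.0450), *Psph* (-0.70, adjusted p = 0.0295) and *Shmt2* (-0.80, adjusted p = 0.0306), and the members that were higher stayed *Nupr1*, *Atf3* and *Ddit3*.

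**Figure D3:**
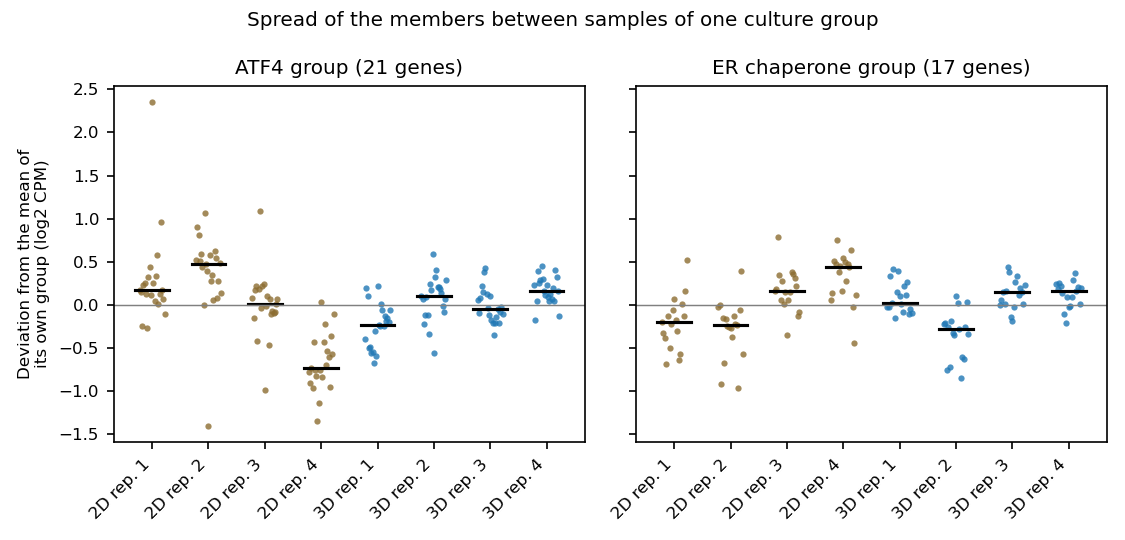
Deviation of each member from the mean of its own culture group, in log2 CPM, for each sample, with the ATF4 group on the left and the ER chaperone group on the right. Each point is 1 gene (brown for 2D, blue for 3D) and bars are medians, which for the ATF4 group lie at -0.73 in 2D replicate 4 and at 0.47 in 2D replicate 2.

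Other gene groups were compared between the cultures as well, where 9.25% of all genes were lower and 9.74% higher in 3D. Of 20 proliferation genes, 19 were lower and 0 higher in 3D, and their summed level was 1305 to 1583 CPM in 3D against 2784 to 4448 CPM in 2D. The largest differences among those that passed were in *Birc5* (-1.56), *Cdc20* (-1.51) and *Bub1* (-1.36, lost without 2D replicate 4 or 3D replicate 3). Of 8 fibroblast markers, 7 were in the table and 4 (*Dcn*, *Postn*, *Col3a1* and *Thy1*) were higher in 3D, with a summed level of 678 to 1071 CPM against 81.1 to 259 CPM, while *Lum* was not in the table. *Thy1* had only 3, 2, 1 and 0 reads in the 2D samples. Among those that did not pass, *Col1a2* had the opposite sign (-1.47, adjusted p = 0.0574, 26 reads or fewer), while *Col1a1* (0.27) and *Pdgfra* (0.81) did not. Of the 6 lens epithelium markers in the table, 2 were higher in 3D and 0 lower, with a summed level of 1437 to 1747 CPM against 849 to 1207 CPM. These were *Pax6* (0.69 ± 0.18, adjusted p = 0.0246) and *Six3* (0.48 ± 0.13, adjusted p = 0.0267), and each lost the call in 4 of 8 fits that left out 1 sample. Of those that did not pass, *Prox1* measured 2.84 and *Cryab* 0.68, and *Mab21l1* (-0.55) and *Gja1* (-0.44) had the opposite sign. The part of these groups in the differences of the stress genes was not tested.

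Setting internal against external regions asks how cells at the core of the organoid differ from those at its surface. In the ATF4 group, 15 of 21 members were lower in the internal region and 2 were higher, where 12.1% of all genes passed in the lower direction, 9.58% in the higher and 21.7% in either. All 6 amino acid and one-carbon enzymes and all 4 transporters fell, as did *Atf4* and *Atf5*, whereas *Ddit4* and *Nupr1* rose. The median log2 fold change was -0.71 over the members and 0.04 over all genes. By the stricter rule 7 members were lower (the 6 enzymes and *Slc7a5*) and 1 was higher (*Ddit4*), against 4.35% and 3.27% of all genes. In 13 members every internal sample was below every external one and in 4 every internal sample was above, where 15.4% and 13.5% of all genes did so. With library sizes left unscaled, the calls over all genes changed from 1083 higher and 1370 lower to 1448 higher and 1114 lower, as the median of all genes moved to 0.15. In that fit all 6 enzymes and 4 transporters stayed lower and past the test. It gave 13 ATF4 members lower in place of 15, *Chac1* and *Sesn2* missing the threshold (adjusted p = 0.0666 and 0.0870), and 3 higher. Without a variance trend in the fit, 7 ATF4 members were lower in place of 15, the same 7 as by the stricter rule, and 2 were higher (*Ddit4* and *Atf3*).

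The serine synthesis enzymes *Phgdh* and *Psat1* showed the steepest differences of all members, and *Psph*, the third of the pathway, a smaller one. *Phgdh* (ENSMUSG00000053398, chr3:98313170-98339990, minus strand) was at 4.66, 4.42, 5.29 and 4.93 log2 CPM in internal replicates 1 to 4 and at 6.82, 6.86 and 7.38 in external replicates 1 to 3. The means were 4.82 ± 0.37 and 7.02 ± 0.31 log2 CPM (SD, n = 4 and 3), a 4.58-fold difference and its log2 fold change was -2.20 ± 0.23 (SE, adjusted p = 2.43e-07). Because 88 of the 251 stretches of 50 bases in the last 300 bases of its transcript also occur in other loci, mostly processed pseudogenes, the uniquely mapped reads may cover this gene in part. No other member shared such a stretch. *Psat1* was at 6.27, 6.69, 6.75 and 7.05 log2 CPM in the internal samples and at 8.81, 8.76 and 8.93 in the external ones, which lay close together. It fell by 2.14 ± 0.16 on the log2 scale (4.41-fold, adjusted p = 2.61e-09). *Psph* was at 4.58, 4.52, 4.37 and 4.10 log2 CPM inside and at 6.10, 6.02 and 5.12 outside, a log2 fold change of -1.35 ± 0.27 (adjusted p = 0.00064).

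The mitochondrial folate enzymes and asparagine synthetase fell as well. *Shmt2* was at 5.83, 5.21, 6.30 and 6.14 log2 CPM in the internal samples and at 7.66, 7.70 and 8.17 in the external samples, with a log2 fold change of -1.98 ± 0.21 (3.93-fold, adjusted p = 4.79e-07). *Mthfd2* was at 6.46, 6.73, 7.39 and 7.20 against 8.08, 8.25 and 8.06 log2 CPM, and fell by 1.18 ± 0.18 on the log2 scale (adjusted p = 4.77e-05). For both genes, each external sample exceeded the highest internal sample. *Asns* (ENSMUSG00000029752, chr6:7675169-7693254, minus strand), whose promoter is the first of those printed above, was at 6.07, 6.10, 6.51 and 6.08 log2 CPM inside and at 7.75, 7.87 and 7.71 outside. It differed 2.99-fold, which is -1.58 ± 0.16 on the log2 scale (adjusted p = 2.69e-07). All 6 enzymes passed the test whichever of the 7 samples was left out.

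**Figure D4:**
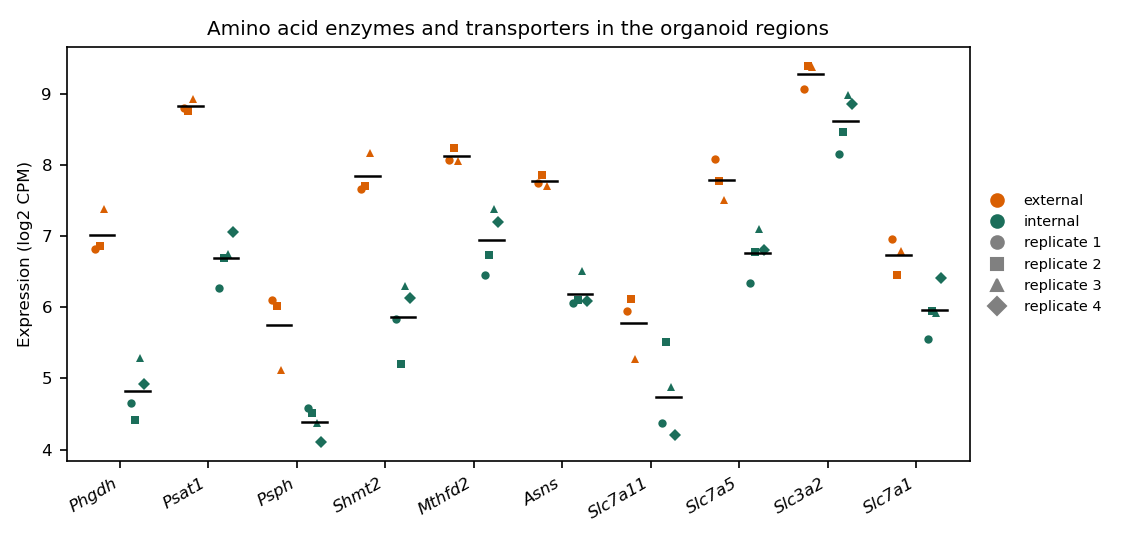
Expression of the 6 amino acid and one-carbon enzymes and 4 amino acid transporters in each region sample, in log2 CPM. Each point is 1 sample (orange external, green internal), its shape gives the replicate number and bars are group means. Internal and external samples are separate for every gene but *Slc7a11*.

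The transporters fell by less. *Slc7a5* was at 6.34, 6.79, 7.11 and 6.81 log2 CPM in the internal samples and at 8.09, 7.77 and 7.52 in the external samples, a log2 fold change of -1.03 ± 0.18 (adjusted p = 0.000179). *Slc7a11*, the cystine importer needed for glutathione synthesis, was at 4.37, 5.51, 4.88 and 4.21 inside and at 5.95, 6.11 and 5.27 outside. Its groups overlapped, since internal replicate 2 exceeded external replicate 3, and its log2 fold change of -1.03 ± 0.29 (adjusted p = 0.0118) did not pass without external replicate 1 (adjusted p = 0.0592) or external replicate 2 (adjusted p = 0.0994). *Slc7a1* was at 5.56, 5.95, 5.92 and 6.41 log2 CPM against 6.96, 6.45 and 6.79, and fell by 0.77 ± 0.20 on the log2 scale (adjusted p = 0.00749). *Slc3a2* was at 8.16, 8.47, 8.99 and 8.87 against 9.08, 9.40 and 9.39, and fell by 0.67 ± 0.17 (adjusted p = 0.0055). In both, the nearest samples of the groups almost touched. Without a variance trend *Slc7a11*, *Slc3a2* and *Slc7a1* missed the threshold (adjusted p = 0.105, 0.116 and 0.0800), and *Slc7a5* passed.

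Among the transcription factors, *Atf4* and *Atf5* were lower inside and *Nupr1* was higher. *Atf4* (ENSMUSG00000042406, chr15:80255184-80257541, plus strand) was at 9.18, 9.03, 9.30 and 9.26 log2 CPM in the internal samples and at 9.61, 10.06 and 9.77 in the external samples, with a log2 fold change of -0.62 ± 0.14 (1.54-fold, adjusted p = 0.00156). *Atf5* was at 10.16, 9.73, 10.01 and 10.03 against 10.31, 10.48 and 10.70, a log2 fold change of -0.51 ± 0.14 (adjusted p = 0.00862) that did not pass without external replicate 3 (adjusted p = 0.0511). *Nupr1* was at 10.52, 10.30, 10.31 and 10.31 inside and at 9.22, 9.70 and 10.01 outside, and rose by 0.72 ± 0.15 on the log2 scale (1.64-fold, adjusted p = 0.00132). For these 3 factors the groups did not overlap, but without a variance trend *Atf4*, *Atf5* and *Nupr1* missed the threshold (adjusted p = 0.0596, 0.109 and 0.0718). *Atf3* was at 4.26, 4.03, 4.07 and 4.26 log2 CPM inside and at 3.58, 3.37 and 3.62 outside, also without overlap, and did not pass (0.63 ± 0.32, adjusted p = 0.173, or 0.0458 without a variance trend), and neither did *Cebpb* (0.72 ± 0.26, adjusted p = 0.0521), also without overlap. *Cebpb* passed with a minimum mean of 2 log2 CPM (adjusted p = 0.0486), a robust variance prior (0.0487) or unscaled library sizes (0.0269). *Ddit3* was at 7.94, 8.0, 8.21 and 8.21 log2 CPM against 7.70, 8.44 and 7.70, with external replicate 2 above all internal samples, and differed by 0.15 ± 0.17 (adjusted p = 0.585).

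The regulators went in both directions. *Ddit4* (ENSMUSG00000020108, chr10:59949669-59951834, minus strand) was at 7.16, 7.24, 8.02 and 8.14 log2 CPM in the internal samples and at 6.57, 6.41 and 5.71 in the external samples. It was the only member of the regulator class to rise, by 1.41 ± 0.23 on the log2 scale (2.66-fold, adjusted p = 7.8e-05). *Trib3* was at 6.72, 7.30, 7.01 and 7.08 against 7.71, 8.15 and 7.35. It fell by 0.71 ± 0.18 on the log2 scale (adjusted p = 0.00618) and did not pass without external replicate 2 (adjusted p = 0.0861) or without a variance trend (adjusted p = 0.0988). *Chac1* was at 5.86, 6.66, 6.64 and 7.21 against 7.43, 7.15 and 7.22, with internal replicate 4 among the external values, and *Sesn2* was at 4.43, 4.98, 5.0 and 4.90 against 5.0, 5.67 and 5.97. The calls of both rested on the full set of samples. *Chac1* (-0.67 ± 0.22, adjusted p = 0.0288) was lost in 4 of the 7 fits that left out 1 sample (any external one or internal replicate 1), with adjusted p up to 0.119. *Sesn2* (-0.72 ± 0.26, adjusted p = 0.0484) was lost in 5 of 7 (all but those without external replicate 1 or internal replicate 3), with adjusted p up to 0.259. Neither passed without a variance trend (adjusted p = 0.192 and 0.129). *Ppp1r15a* was at 3.26, 3.58, 3.31 and 3.11 log2 CPM against 3.77, 2.41 and 3.27, and did not pass (0.17 ± 0.42, adjusted p = 0.817).

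Between the regions, 3 of 17 members of the ER chaperone group were lower inside and 0 were higher, beside 12.1% and 9.58% of all genes, and 0 passed the stricter rule. Of the 3 calls, 1 (*Pdia6*) held whichever sample was left out. The median log2 fold change over these members was -0.14, and it was -0.071 without external replicate 1 and -0.21 without external replicate 2. *Pdia6*, a disulfide isomerase that also acts on the sensor IRE1 (ENSMUSG00000020571, chr12:17266545-17284770, plus strand), was at 8.15, 8.23, 7.92 and 8.0 log2 CPM in the internal samples and at 9.25, 8.82 and 8.82 in the external samples. It fell by 0.89 ± 0.14 on the log2 scale (1.85-fold, adjusted p = 7.75e-05), and the groups did not overlap. *Hspa5* was at 10.003, 10.09, 9.58 and 9.43 against 10.40, 10.05 and 10.17, with a log2 fold change of -0.43 ± 0.15 (adjusted p = 0.0482). *Herpud1*, which helps to extract misfolded proteins from the ER membrane, was at 6.67, 6.34, 6.54 and 6.37 against 6.79, 7.03 and 7.04, with a log2 fold change of -0.47 ± 0.17 (adjusted p = 0.0432). *Hspa5* was lost in 5 of the 7 fits, without any of the external samples or without internal replicate 3 or 4 (adjusted p up to 0.18), and *Herpud1* also in 5, without external replicate 2 or 3 or internal replicate 2, 3 or 4 (adjusted p up to 0.141). With unscaled library sizes both missed the threshold (adjusted p = 0.143 and 0.116), as they did without a variance trend (adjusted p = 0.237 and 0.111), and *Pdia6* alone passed.

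The other 14 members of the ER chaperone group did not pass in the regions. *Pdia3* and *Pdia4*, isomerases of the same family as *Pdia6*, differed by -0.01 ± 0.14 and -0.14 ± 0.21. *Hsp90b1* was at 8.35, 8.40, 7.58 and 7.58 log2 CPM inside and at 8.58, 8.12 and 8.38 outside (-0.38 ± 0.19, adjusted p = 0.159), and *Calr* differed by -0.20 ± 0.15. For *Hsp90b1* internal replicates 1 and 2 lay among the external samples while internal replicates 3 and 4 lay below them. *Xbp1* differed by 0.09 ± 0.23, *Dnajb9* by 0.44 ± 0.25 (adjusted p = 0.241), *Hyou1* by 0.46 ± 0.36, *Edem1*, which hands misfolded glycoproteins to degradation, by 0.25 ± 0.33 and *Sel1l* by -0.03 ± 0.13. *Sdf2l1*, a partner of the J protein *Dnajb11*, was at 2.94, 2.94, 3.38 and 2.81 log2 CPM inside and at 4.48, 3.43 and 3.27 outside, where external replicate 1 stood above the others (-0.71 ± 0.41, adjusted p = 0.236). *Dnajb11*, *Dnajc3*, *Creld2* and *Manf* lay between -0.24 and -0.04.

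Other gene groups were compared between the regions too, where 12.1% of all genes were lower and 9.58% higher inside. Of 20 proliferation genes, 18 were lower inside and 0 higher, with a summed level of 118 to 183 CPM in the internal samples and 1251 to 1626 CPM in the external samples. The largest differences were in *Ccna2* (-5.49), *Cdc20* (-5.0) and *Birc5* (-4.94). Of 8 fibroblast markers, 6 were in the table, 2 (*Postn* and *Col3a1*) were higher and 1 (*Col1a1*) was lower inside, with a summed level of 881 to 1124 CPM against 285 to 712 CPM, while *Col1a2* and *Lum* were not in the table. Of the 8 lens markers in the table (6 for epithelium, 2 for fibers), 4 were higher inside and 0 lower, namely *Prox1* (1.45 ± 0.14, adjusted p = 1.3e-07), *Hsf4* (3.03 ± 0.73, adjusted p = 0.00394, lost with voom), *Pax6* (0.65 ± 0.16, adjusted p = 0.00601, lost without external replicate 2, without a variance trend and with the replicate block) and *Cryab* (0.43 ± 0.15, adjusted p = 0.041, lost in 5 of 7 fits that left out 1 sample). *Hsf4* had only 0, 6 and 5 reads in the external samples. *Six3* (0.39, adjusted p = 0.071) and *Bfsp1* (2.22, adjusted p = 0.108) did not pass, nor did *Mab21l1* (-0.34) and *Gja1* (-0.23), which had the opposite sign. The 6 markers listed for epithelium summed to 1261 to 1558 CPM inside and 862 to 984 CPM outside. This sum includes *Prox1* and *Cryab*, which are also expressed in fiber cells, so it does not set epithelium against fibers. The part of these groups in the fall of the amino acid genes was not tested.

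Set side by side, both comparisons shared 3 members that passed in the same direction, *Nupr1* (2.5 in 3D and 0.72 inside), *Psat1* (-0.85 and -2.14) and *Slc7a1* (-0.61 and -0.77). A further 13 ATF4 members were lower inside without passing in the cultures, *Ddit4* was higher inside (1.41) without passing in 3D (0.79), and *Atf3* and *Ddit3* were higher in 3D without passing inside. *Cebpb* and *Ppp1r15a* passed in neither comparison (*Cebpb* only under the 3 settings named above), nor did 13 of the 17 ER chaperone members. Of all genes, 19.0% passed in the cultures and 21.7% in the regions, in either direction. The share of all genes that passed in both or in neither was not counted, so these overlaps have no background to be read against. Whether the effects differ between the comparisons was not tested, since the tables were normalized separately.

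The pathway around the members was described with further lists. Among 20 genes of eIF2, its kinases, its phosphatases and its exchange factor eIF2B, 0 passed in 3D against 2D (19.0% of all genes did in either direction), and 1 was higher and 5 were lower inside (9.58% and 12.1% of all genes). The 4 kinases did not pass in either comparison. *Eif2ak1* (HRI) gave 0.02 in 3D and 0.06 inside, *Eif2ak2* (PKR) 0.63 and 0.44, *Eif2ak3* (PERK) -0.32 and 0.39, and *Eif2ak4* (GCN2) 0.04 and 0.50 on the log2 scale. Of those that passed inside, the largest differences were in *Eif2s2*, the beta subunit of eIF2 (10.46 to 10.54 log2 CPM against 11.41 to 11.49, log2 fold change -0.94 ± 0.12, adjusted p = 5.2e-06), *Ppp1ca*, a catalytic subunit that works with *Ppp1r15a* (-0.93 ± 0.14, adjusted p = 3.07e-05), and *Eif2s1*, the subunit that the kinases phosphorylate (-0.84 ± 0.23, adjusted p = 0.0115, and not past the test without external replicate 1 or without a variance trend). Of 10 sensors and membrane-bound factors of the unfolded protein response, 2 were higher in 3D and 1 was higher inside, beside 9.74% and 9.58% of all genes. In 3D these were *Creb3l1*, an ER-bound factor related to ATF6 (2.96 ± 0.56, adjusted p = 0.00644), and *Mbtps1*, the protease that releases ATF6 (0.46 ± 0.14, adjusted p = 0.042, lost in 6 of 8 fits that left out 1 sample and without a variance trend), and inside it was *Creb3l2* (0.70 ± 0.19, adjusted p = 0.0102, lost without external replicate 2 or 3 or without a variance trend). The sensor *Ern1* (IRE1) gave 0.18 and -0.09, *Atf6* -0.23 and 0.06, and the protease *Mbtps2* -0.02 and 0.19, and none of these passed.

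The aminoacyl-tRNA synthetases, which charge tRNAs and include known ATF4 targets, were lower inside in 17 of 20 genes and higher in 0, beside 12.1% and 9.58% of all genes, with a median log2 fold change of -0.80. *Rars* was at 6.60 to 6.91 log2 CPM in the internal samples and at 7.89 to 8.33 in the external samples (-1.34 ± 0.15, adjusted p = 1.03e-06), and *Vars* and *Wars* gave -1.16 ± 0.21 (adjusted p = 0.000203) and -1.05 ± 0.20 (adjusted p = 0.000355). In 3D against 2D, 4 of the 20 were lower (*Farsa*, *Hars*, *Vars* and *Iars*) and 0 were higher, beside 9.25% and 9.74% of all genes, with a median of -0.33. *Farsa* lost the call without 2D replicate 3 or 4 or 3D replicate 1, 2 or 3 (adjusted p up to 0.0801). It also lost it without a variance trend (adjusted p = 0.0603) or when centred on the sample median (adjusted p = 0.0545). *Vars* lost it without 3D replicate 1, 3 or 4 (adjusted p up to 0.0701). Of 29 further genes known as ATF4 targets, 27 were in the tables, of which *Nars* is also a synthetase counted above. Inside, 12 of them were lower and 3 higher, beside 12.1% and 9.58% of all genes, with a median of -0.62. The largest differences among these 15 were in *Gdf15*, a secreted stress hormone (-0.91 to 3.57 log2 CPM inside and 3.35 to 5.01 outside, -2.85 ± 0.75, adjusted p = 0.00765), *Slc1a5*, the glutamine carrier (-1.94 ± 0.24, adjusted p = 2.12e-06), and *Cth*, which makes cysteine (-1.86 ± 0.39, adjusted p = 0.00117). *Gdf15* overlapped between the regions and did not pass without external replicate 2 or without a variance trend. In the cultures, where 9.74% of all genes were higher and 9.25% lower, 2 of the 27 were higher in 3D, *Cebpd* (2.79 ± 0.40, adjusted p = 0.00193) and *Klhl24* (1.33 ± 0.24, adjusted p = 0.00537), and 2 were lower, *Slc38a2* (-0.57 ± 0.14, adjusted p = 0.016, or 0.0524 without 3D replicate 3) and *Mthfd1l*, with a median of -0.09.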

How the data were processed

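RNA of 15 samples of 21EM15 cells was sequenced from the 3′ end (QuantSeq). Cultures and laser-captured regions were extracted with different kits. The authors trimmed the reads, kept sense reads, used STAR 2.7.8a with GRCm38.p6 for alignment and featureCounts 1.6.0 for counting, kept unique hits only and removed genes with low CPM. The annotation release is not given in the sources used here. The deposited unit is log2 CPM, for which the authors added 2 reads on average to each count and scaled library sizes within each of 2 tables. The deposited columns of fold changes and p-values were not used. The steps between low values gave back whole reads (100% of values, tolerance 0.05 reads). They gave depth, a floor of 3 reads that covers counting error only (PCR copies cannot be told apart), and the alternatives.

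Each comparison was fitted in its own table on the deposited log2 CPM with limma 3.58.1 (R 4.3.3; linear model, two-sided, empirical Bayes whose prior follows mean expression), and p-values were adjusted by Benjamini-Hochberg across every gene. Positive values mean higher in 3D or in the internal region, and fold changes understate changes of low genes. The script was tested on simulated counts of independent genes with the same dispersion throughout, which checks the code and not the error rate in these data. Lists were described by counts and medians and not tested. The members and all lists were chosen with earlier results of these data known. All 38 members are accounted for. Those that passed are given per sample, and from each other pathway list up to 3 genes that passed with the largest differences were named, with the eIF2 kinases, *Ern1*, *Atf6*, *Mbtps1* and *Mbtps2* in every case. Gene positions are from GENCODE vM21. Alternatives were a variance prior without trend or a robust one, 2 other thresholds, a minimum mean of 2 log2 CPM, prior counts of 0.5 and 5, 2 other scalings, voom, left-out samples and the replicate number as a block. Python 3.11.15, pandas 2.3.3 and matplotlib 3.10.9 were used otherwise.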

Additional observations from a re-analysis of the deposited data

Results flagged for a closer look

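In 10 of the 114 sets of 4 samples that the members gave, the highest or lowest sample stood apart from the other 3 (gap over range above Dixon's critical value for a group of 4), where chance flags about 1 in 20. In 3D replicate 2, *Sdf2l1* (4.28), *Manf* (7.36), *Atf5* (8.81) and *Ppp1r15a* (2.34) were below the other 3D samples on the log2 CPM scale, and *Slc7a5* in 3D replicate 4 (8.51) and *Pdia3* in 3D replicate 3 (9.13) were above them. *Chac1* was low in 2D replicate 4 (5.52). In the internal region, *Nupr1* was high in replicate 1 (10.52), *Sesn2* low in replicate 1 (4.43) and *Asns* high in replicate 3 (6.51). The 3 external samples were too few for this rule.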

How the results depend on the processing

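All 73 values of single genes that passed kept their direction under every alternative run. At an adjusted p under 0.01 with an absolute log2 fold change over 1, 517 genes passed in the cultures and 861 in the regions, with 1 ATF4 member higher and 0 lower in 3D, 1 higher and 7 lower inside, and 0 ER chaperone members in either. At 0.05 with the same fold, 978 and 1177 genes passed, with 0 ATF4 members lower and 0 ER chaperone members higher in 3D, and 1 ATF4 member higher, 8 lower and 0 ER chaperone members lower inside. Without a variance trend, 1488 genes passed in the regions, with 7 ATF4 members lower, 2 higher (*Ddit4* and *Atf3*, *Nupr1* being lost) and 1 ER chaperone member lower, and with unscaled library sizes 1 ER chaperone member did. The cause was not tested. Leaving out 1 sample moved the count over all genes in the cultures between 1147 (without 3D replicate 3) and 2834 (without 2D replicate 2), with 1238 without 3D replicate 4 and 1429 without 3D replicate 1. It moved the ATF4 members lower in 3D between 2 and 5 and those lower inside between 11 (without external replicate 2) and 15. The ER chaperone members higher in 3D moved between 0 and 1 and those lower inside between 1 and 3.

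In the cultures, same-numbered samples deviated from their group means with correlations across genes of 0.23, 0.50, 0.07 and 0.01. In the regions these were -0.04, -0.07 and -0.06. The culture values for numbers 1 and 2 exceeded those of all differently numbered pairs (up to 0.19). The labels state no pairing, so the number entered only as an alternative. Without both culture samples numbered 2, 2534 genes passed, with 3 ATF4 members higher and 2 lower in 3D. Then *Sel1l* passed and *Dnajb9* did not (adjusted p = 0.0364 and 0.101). When replicate number entered as a replicate block, 1343 genes were higher and 1337 lower in 3D, 719 higher and 1064 lower inside, 4 ATF4 members (*Psat1*, *Phgdh*, *Shmt2* and *Slc7a1*) were lower in 3D and 1 ER chaperone member (*Pdia6*) inside, 13 ATF4 members were lower inside (*Slc7a11* and *Sesn2* being lost, adjusted p = 0.0527 and 0.0641), and the block turned *Pdia3* to 0.074 and *Atf6* to -0.071 inside.

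The signs that turned belong to genes that did not pass. Unscaled library sizes gave *Herpud1* -0.033 and *Eif2ak1* -0.027 in 3D, and *Pdia3* 0.095, *Dnajc3* 0.025, *Creld2* 0.070, *Sel1l* 0.077 and *Ern1* 0.019 inside. Centring on the sample median gave *Atf6* -0.0066 and *Eif2ak1* -0.0056 inside. Over fits with samples left out, log2 fold changes in 3D ran from -0.46 to 0.012 (*Asns*), -0.19 to 0.40 (*Atf5*), -0.092 to 0.29 (*Calr*), -0.15 to 0.39 (*Chac1*), -0.29 to 0.0066 (*Dnajb11*), -0.17 to 0.13 (*Eif2ak1*), -0.051 to 0.15 (*Eif2ak4*), -0.060 to 0.093 (*Herpud1*), -0.35 to 0.13 (*Hyou1*), -0.49 to 0.042 (*Manf*), -0.12 to 0.11 (*Mbtps2*), -0.24 to 0.049 (*Pdia3*) and -0.013 to 0.34 (*Slc3a2*). Inside they ran from -0.080 to 0.14 (*Atf6*), -0.22 to 0.30 (*Creld2*), -0.21 to 0.030 (*Dnajc3*), -0.12 to 0.18 (*Eif2ak1*), -0.29 to 0.032 (*Ern1*), -0.46 to 0.089 (*Manf*), -0.017 to 0.29 (*Mbtps1*), -0.091 to 0.074 (*Pdia3*), -0.31 to 0.064 (*Pdia4*), -0.20 to 0.48 (*Ppp1r15a*) and -0.090 to 0.23 (*Xbp1*). At this depth, members with few reads such as *Ppp1r15a* (from 13) and *Atf3* (from 23) carry the largest counting error.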

Other observations

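The wider machinery of the ER, for protein translocation, glycosylation and degradation, was described with 55 genes. In 3D against 2D, 5 were higher and 1 was lower, where 9.74% and 9.25% of all genes were, and their median was 0.0009 on the log2 scale. Inside against outside, 3 were higher and 3 lower, where 9.58% and 12.1% of all genes were, with a median of 0.02. *Os9*, a lectin that passes misfolded glycoproteins to degradation, and *Sil1*, an exchange factor of BiP, were each higher in both comparisons. *Sec61g*, a subunit at the ER translocation channel, was higher in 3D and lower inside. *Os9* measured 5.61 to 5.97 log2 CPM in 2D and 6.75 to 6.88 in 3D (1.07 ± 0.13, SE, adjusted p = 0.000834), and 8.36 to 8.54 inside and 7.62 to 7.80 outside (0.76 ± 0.13, adjusted p = 0.000206). *Edem2* (0.88 ± 0.21, adjusted p = 0.0159) and *Sil1* (0.87 ± 0.23, adjusted p = 0.0243), rose in 3D. *Edem2* lost the call without 3D replicate 3 or 4 (adjusted p = 0.0572 and 0.0543), and *Sil1* without 2D replicate 4 or 3D replicate 2, 3 or 4 (adjusted p up to 0.0773). *Ssr4*, another subunit at that channel, and *Sec61g* fell inside (-0.72 ± 0.14 and -0.68 ± 0.18, adjusted p = 0.000597 and 0.00783), and *Sec61g* lost the call without a variance trend and with the replicate block (adjusted p = 0.0674 and 0.066).

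Of 20 genes known to respond to low oxygen, 19 were in the tables, 1 of which (*Vegfa*) is also among the further ATF4 targets. In 3D, where 9.74% of all genes were higher and 9.25% lower, 1 was higher (*Bnip3l*, 0.66 ± 0.14, adjusted p = 0.0121) and 1 lower (*Car12*, -1.83 ± 0.48, adjusted p = 0.0247, lost without 2D replicate 3 or 4 or 3D replicate 1 or 2). Inside, where 9.58% and 12.1% were, 6 were higher and 5 lower, among them *Car12* (2.77 ± 0.88, adjusted p = 0.0252), *Pfkfb3* (1.35 ± 0.47, adjusted p = 0.0424) and *Adm* (-1.72 ± 0.26, adjusted p = 3.5e-05). *Adm* passed in all 7 fits that left out 1 sample, and *Car12* and *Pfkfb3* in 2 of 7 each. *Car12* had 1, 0 and 3 reads in the external samples, which is at or under the floor of 3 reads. It missed the threshold with voom and with the replicate block (adjusted p = 0.145 and 0.0611). *Pfkfb3* missed it with voom, the replicate block, no variance trend or centring on the sample median (adjusted p = 0.166, 0.114, 0.0750 and 0.0530).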
